A study of Mus musculus with 12 samples.

Results

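The 10 genes described here encode integrin subunits. 5 of them are leukocyte integrin subunits (*Itgam*, *Itgax*, *Itgal*, *Itga4* and *Itgb2*) and 5 are matrix and TGF-beta-binding subunits (*Itgb1*, *Itgav*, *Itgb3*, *Itgb5* and *Itgb8*). They were taken by gene symbol from a table of 18180 genes, in which all 10 were found, beside 15 further genes of the integrin list. The table holds bulk RNAseq of sorted EGFR+ cells. They came from 3 GBMs (T3, T4 and T5) grown in mice, each separated by flow cytometry into PDGFRA+, PDGFRA-, GAL1+ and GAL1- cells, which gave 12 libraries and 3 per population. The tumors arose in mice of mixed background (C57Bl/6J, 129S4, FVBN/J, Balb/cJ and, by the study's methods, SJL) that lacked *Cdkn2a* in all cells, after a lentivirus carrying Cre was injected into the brain, where it turned on human *EGFR* and a luciferase reporter. All 4 populations share the same alleles, and no library was made from tumor-free tissue or from cells sorted as EGFR-. PDGFRA and Galectin-1 were stained in separate sorts, so a cell of either PDGFRA population could also have been sorted as GAL1+ or GAL1- from the same tumor. Levels are given as log2 CPM, the read count of a gene scaled to the size of its library, on a log2 scale. The reads behind them, recovered from the deposited values, numbered 21728280 to 24117541 per library in GAL1- cells, 13788453 to 17486645 in GAL1+ cells, 10768492 to 18522549 in PDGFRA+ cells and 9851175 to 16516049 in PDGFRA- cells.

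Integrins are pairs of an alpha and a beta chain that join a cell to the matrix or to another cell. The beta chain of *Itgb2* is made by leukocytes, microglia and macrophages included, and pairs with the alpha chains of *Itgam* (CD11b), *Itgax* (CD11c) and *Itgal* (CD11a), while the alpha chain of *Itga4* pairs with that of *Itgb1* and binds *Vcam1* and fibronectin. The alpha v chain of *Itgav* pairs with the beta chains of *Itgb1*, *Itgb3*, *Itgb5*, *Itgb6* or *Itgb8* and binds matrix proteins such as vitronectin, and with some of these beta chains it frees active TGF-beta from its latent complex.

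The genes of the sort were measured first. *Pdgfra* had a log2 CPM of 10.81, 10.34 and 10.49 in T3, T4 and T5 in GAL1- cells, 10.81, 10.13 and 9.95 in PDGFRA+ cells, 10.11, 8.62 and 7.36 in PDGFRA- cells and 8.95, 6.74 and 7.05 in GAL1+ cells. It was higher in PDGFRA+ than in PDGFRA- cells of each tumor, but the PDGFRA- library of T3 lay inside the range of the PDGFRA+ libraries. *Lgals1*, which encodes Galectin-1, had a log2 difference of 1.29 between GAL1+ and GAL1- cells (adjusted p = 0.000967, standard error 0.22), with GAL1+ above GAL1- in each tumor. *Ptprc*, which encodes the leukocyte antigen CD45, was read in every library, although the study describes the sorted cells as CD45-. The methods of this sort name antibodies to EGFR, PDGFR and Galectin-1, and do not state whether a CD45 gate was used. The log2 CPM of *Ptprc* was 3.70, 5.18 and 4.94 in T3, T4 and T5 in GAL1- cells, 6.11, 7.33 and 7.31 in PDGFRA+ cells, 7.08, 6.65 and 8.66 in PDGFRA- cells and 8.21, 8.74 and 9.0 in GAL1+ cells. The PDGFRA- library of T5 stood apart from the PDGFRA- libraries of T3 and T4, with a *Ptprc* level inside the range of the GAL1+ libraries.

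GAL1+ and GAL1- cells differed in 9 of the 10 integrin genes. All 5 leukocyte subunits and *Itgb3* and *Itgb5* rose in GAL1+ cells, *Itgav* and *Itgb8* fell, and *Itgb1* was not called. Calls are Benjamini-Hochberg adjusted p-values under 0.05 over all 18180 genes, and this comparison called 58.2% of all genes, with 28.9% higher and 29.3% lower. In 8 of the 10 genes the 3 GAL1+ libraries did not overlap the 3 GAL1- libraries, as in 60.6% of all genes. The share called was above this background, in a comparison where most genes were called. In bulk samples fewer cells of a type and less RNA per cell cannot be told apart.

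**Figure D1:**
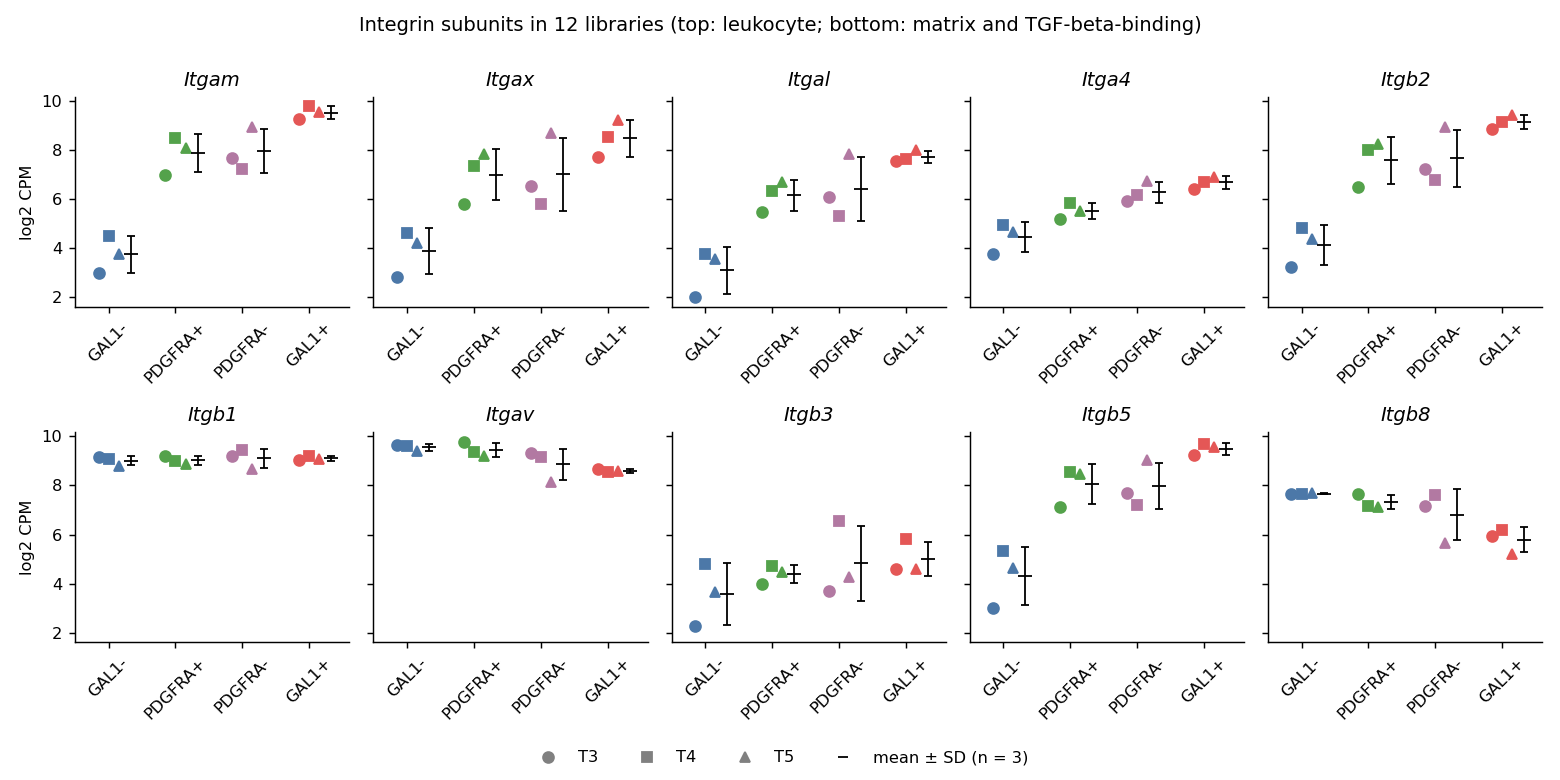
Level of each of the 10 integrin subunit genes in log2 CPM (vertical axis) in the 12 libraries, by sorted population (horizontal axis), with tumors T3, T4 and T5 as circles, squares and triangles and the mean ± SD of 3 libraries as bars. The leukocyte subunits and *Itgb5* climb from GAL1- to GAL1+ cells, and *Itgav* and *Itgb8* have their lowest means in GAL1+ cells. *Itgb1* stays between 8.69 and 9.43, and *Itgb3* peaks in the PDGFRA- library of T4.

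Among the leukocyte subunits, *Itgam* and its partner *Itgb2* were the most abundant per length in GAL1+ cells. *Itgam*, the alpha chain of the complement receptor on microglia, macrophages and neutrophils, had a log2 CPM of 2.98, 4.50 and 3.77 in T3, T4 and T5 in GAL1- cells, 7.0, 8.49 and 8.10 in PDGFRA+ cells, 7.67, 7.23 and 8.96 in PDGFRA- cells and 9.26, 9.78 and 9.54 in GAL1+ cells. Every GAL1- library was below every other library, and every GAL1+ library was above every other library. The mean of GAL1+ cells exceeded that of GAL1- cells by 5.78 on the log2 scale, 54.9 fold (standard error 0.41, adjusted p = 3.93e-05), the largest difference among the 10 genes. The reads behind it were 218.8 to 542.0 per library in GAL1- cells and 9217.2 to 11075.9 in GAL1+ cells, so counting error was small against the difference between tumors.

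*Itgb2*, the beta chain shared by *Itgam*, *Itgax* and *Itgal*, had a log2 CPM of 3.24, 4.81 and 4.40 in T3, T4 and T5 in GAL1- cells, 6.50, 8.0 and 8.23 in PDGFRA+ cells, 7.23, 6.79 and 8.96 in PDGFRA- cells and 8.84, 9.14 and 9.42 in GAL1+ cells. The GAL1- libraries were again the lowest 3, and the PDGFRA- library of T5 fell inside the GAL1+ range. Its difference of GAL1+ over GAL1- cells was 4.98 on the log2 scale (31.6 fold, standard error 0.43, adjusted p = 4.05e-05). *Itgax*, which marks dendritic cells and activated microglia, had a log2 CPM of 2.84, 4.61 and 4.21 in GAL1- cells, 5.82, 7.34 and 7.83 in PDGFRA+ cells, 6.55, 5.81 and 8.69 in PDGFRA- cells and 7.71, 8.55 and 9.21 in GAL1+ cells, in the order T3, T4 and T5. GAL1- libraries lay below all others, but the GAL1+ libraries of *Itgax* overlapped both PDGFRA populations. *Itgax* had a log2 difference of 4.60 between GAL1+ and GAL1- cells (24.3 fold, standard error 0.49, adjusted p = 7.42e-05). *Itgam* and *Itgax* are neighbouring related genes on chromosome 7, beside *Itgad*. Their recovered read totals were whole in 2 and 1 of 12 libraries, against 4 (*Itga4*) to 11 (*Itgal* and *Itgb1*) for the other members. In this counting fractions come from reads that map to more than 1 place, and a fractional total does not give their number. Fractions were common over all genes. Whether *Itgam*, *Itgax* and *Itgad* share reads with each other was not tested, so their separate levels are given as uncertain.

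*Itgal*, the alpha chain of LFA-1, a receptor for *Icam1*, had a log2 CPM of 2.0, 3.75 and 3.57 in T3, T4 and T5 in GAL1- cells, 5.47, 6.35 and 6.69 in PDGFRA+ cells, 6.08, 5.30 and 7.85 in PDGFRA- cells and 7.54, 7.63 and 8.01 in GAL1+ cells. The order was that of *Itgb2*, with the PDGFRA- library of T5 among the GAL1+ libraries. GAL1+ cells exceeded GAL1- cells by 4.62 on the log2 scale (24.6 fold, standard error 0.46, adjusted p = 5.76e-05). *Itga4*, the alpha chain of the *Vcam1* receptor VLA-4, had a log2 CPM of 3.76, 4.95 and 4.68 in GAL1- cells, 5.20, 5.85 and 5.54 in PDGFRA+ cells, 5.92, 6.19 and 6.75 in PDGFRA- cells and 6.42, 6.72 and 6.92 in GAL1+ cells, in the same order of tumors. Its range was the narrowest of the leukocyte subunits, and it was the only one of the 5 whose PDGFRA+ and PDGFRA- libraries did not overlap. The difference of GAL1+ over GAL1- cells was 2.22 on the log2 scale (4.66 fold, standard error 0.20, adjusted p = 4.31e-05).

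*Itgb5*, listed with the matrix integrins because its product joins alpha v in a vitronectin receptor, had a profile near those of *Itgb2*, *Itgam* and *Itgal*. Its log2 CPM was 3.02, 5.33 and 4.64 in T3, T4 and T5 in GAL1- cells, 7.12, 8.55 and 8.48 in PDGFRA+ cells, 7.71, 7.20 and 9.02 in PDGFRA- cells and 9.23, 9.68 and 9.57 in GAL1+ cells. All GAL1+ libraries were above, and all GAL1- libraries below, every PDGFRA library. GAL1+ cells were 5.16 higher than GAL1- cells on the log2 scale (35.8 fold, standard error 0.47, adjusted p = 4.60e-05), which is second to *Itgam* among the 10 genes. Likeness of 2 genes was measured as the mean absolute difference of their log2 profiles over the 12 libraries, each centred on its own mean. By this measure the member nearest to *Itgb5* was *Itgb2* at 0.198, the smallest distance of any pair of the 10 genes, followed by *Itgam* at 0.251 and *Itgal* at 0.275. The other leukocyte subunits were further off, *Itgax* at 0.421 and *Itga4* at 1.045.

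*Itgav* and *Itgb8* ran the other way. *Itgav* had a log2 CPM of 9.66, 9.59 and 9.41 in T3, T4 and T5 in GAL1- cells, 9.77, 9.36 and 9.22 in PDGFRA+ cells, 9.31, 9.14 and 8.13 in PDGFRA- cells and 8.69, 8.54 and 8.58 in GAL1+ cells. The lowest of the 12 values was the PDGFRA- library of T5, and the 3 GAL1+ libraries followed. *Itgav* fell by 0.95 on the log2 scale from GAL1- to GAL1+ cells (standard error 0.20, adjusted p = 0.00288, lower in 3 of 3 tumors). *Itgb8*, whose product with alpha v binds latent TGF-beta, had a log2 CPM of 7.67, 7.66 and 7.69 in GAL1- cells, 7.67, 7.16 and 7.14 in PDGFRA+ cells, 7.17, 7.62 and 5.66 in PDGFRA- cells and 5.96, 6.19 and 5.23 in GAL1+ cells, in the order T3, T4 and T5. The GAL1- libraries were nearly equal, and the PDGFRA- library of T5 again lay in the GAL1+ range. *Itgb8* fell by 1.88 on the log2 scale from GAL1- to GAL1+ cells (3.68 fold, standard error 0.33, adjusted p = 0.001, lower in 3 of 3 tumors).

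*Itgb1*, the most widely shared beta chain, barely moved. Its log2 CPM was 9.15, 9.08 and 8.80 in T3, T4 and T5 in GAL1- cells, 9.22, 9.0 and 8.86 in PDGFRA+ cells, 9.19, 9.43 and 8.69 in PDGFRA- cells and 9.05, 9.21 and 9.06 in GAL1+ cells. All 4 populations overlapped, and their means differed by at most 0.10. The difference of GAL1+ over GAL1- cells was 0.10 (standard error 0.14, 95% interval -0.22 to 0.41, adjusted p = 0.582), and it took the other sign, -0.30, under quantile normalization. *Itgb3*, the beta chain of the vitronectin receptor of osteoclasts and of the platelet fibrinogen receptor, had a log2 CPM of 2.27, 4.81 and 3.68 in T3, T4 and T5 in GAL1- cells, 3.99, 4.73 and 4.49 in PDGFRA+ cells, 3.69, 6.57 and 4.26 in PDGFRA- cells and 4.60, 5.81 and 4.59 in GAL1+ cells. T4 was the highest tumor in every population, and the range of the tumor means, 1.84, exceeded that of the population means, 1.42. For *Itgb3*, GAL1+ cells exceeded GAL1- cells by 1.42 (standard error 0.40, adjusted p = 0.0126), in each of the 3 tumors but with overlapping libraries, and this call was lost without tumor T3, where the difference was 0.96, and in a fit without the tumor as a block.

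**Figure D2:**
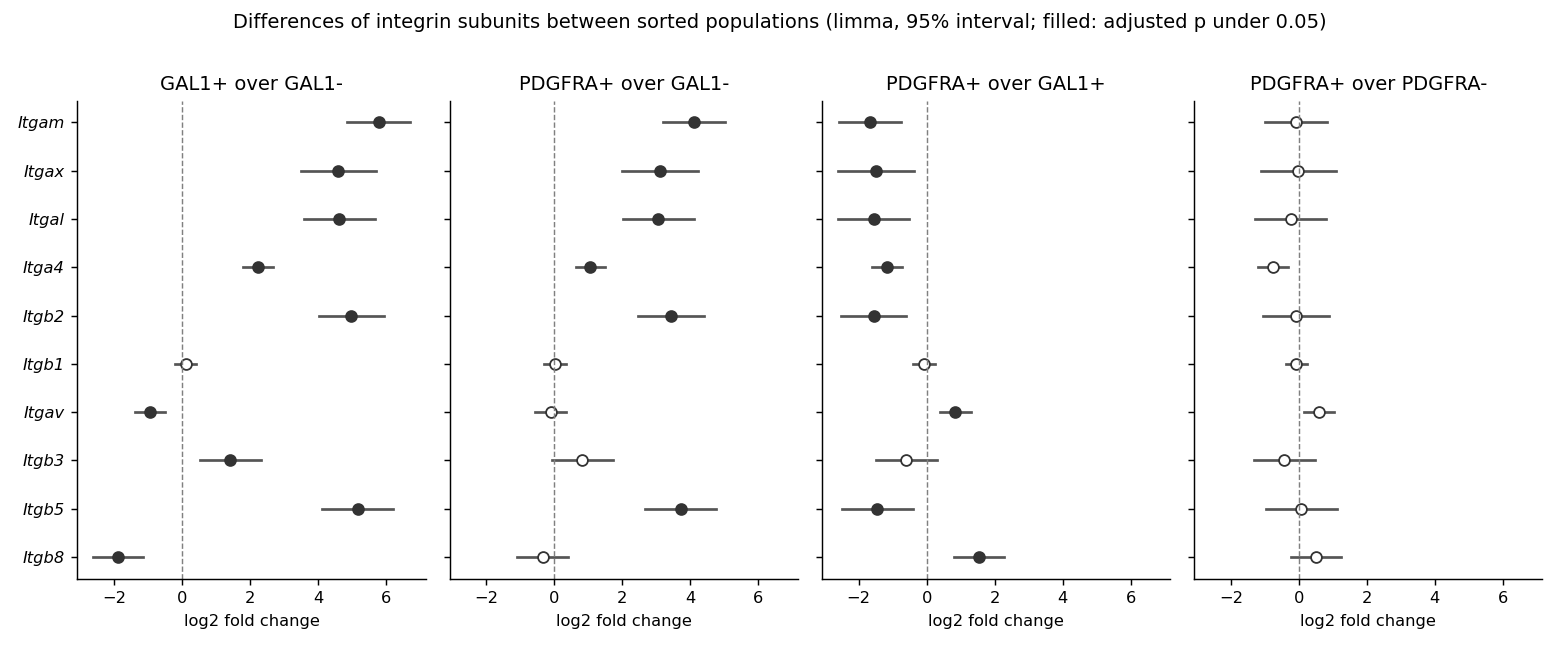
Log2 fold change (horizontal axis) of each integrin subunit gene (vertical axis) in 4 of the 6 comparisons, from limma with the tumor as a block, with the 95% interval as a line and filled points for adjusted p-values under 0.05. From GAL1- to GAL1+ cells *Itgam* and *Itgb5* differ most, at 5.78 and 5.16, *Itgb8* lies at -1.88, and no point is filled for PDGFRA+ over PDGFRA- cells.

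The promoters of *Itgam* and *Itgb5*, which moved together, and of *Itgb8*, which moved the other way, are shown as the 250 bases before the start of the gene in RefSeq (GRCm38.p6, 5′ to 3′ on the strand of the gene), at chr7:128062390-128062639 and chr16:33829415-33829664 on the plus strand and chr12:119238277-119238526 on the minus strand. 7 of the 10 genes had an entry (*Itgam*, *Itgax*, *Itga4*, *Itgb1*, *Itgav*, *Itgb5* and *Itgb8*). The GENCODE annotation of GRCm38 starts *Itgb8* at chr12:119238802 on the minus strand, so the *Itgb8* window lies inside the gene by that annotation. Capitals mark GAGGAA or its reverse complement TTCCTC, the core of the motif of PU.1, a transcription factor of myeloid cells.
Itgam: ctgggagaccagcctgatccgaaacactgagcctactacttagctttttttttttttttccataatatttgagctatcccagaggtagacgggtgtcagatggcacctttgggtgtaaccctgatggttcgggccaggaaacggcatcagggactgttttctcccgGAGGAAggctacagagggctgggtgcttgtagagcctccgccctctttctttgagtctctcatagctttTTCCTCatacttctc
Itgb5: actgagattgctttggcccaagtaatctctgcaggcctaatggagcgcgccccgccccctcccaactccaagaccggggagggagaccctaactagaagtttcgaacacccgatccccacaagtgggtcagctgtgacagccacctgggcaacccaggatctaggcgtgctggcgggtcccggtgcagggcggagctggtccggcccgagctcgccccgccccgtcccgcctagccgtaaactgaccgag
Itgb8: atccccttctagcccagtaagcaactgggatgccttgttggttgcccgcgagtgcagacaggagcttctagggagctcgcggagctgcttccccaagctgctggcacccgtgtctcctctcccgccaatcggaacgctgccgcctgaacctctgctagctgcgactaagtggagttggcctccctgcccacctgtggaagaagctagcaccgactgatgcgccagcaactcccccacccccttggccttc
The *Itgam* window held the core on both strands, once each, starting 84 and 15 bases before the start. *Itgax* and *Itgb5* had no match to these letters, nor had *Itga4* and *Itgb8*, while *Itgav* had 2 matches and *Itgb1* had 1. Of all 32851 promoter windows of this length, 23.3% held the core on either strand. The GC box GGGCGG, also read on both strands as CCGCCC, occurred 3 times in the *Itgb5* window, once each in those of *Itgam*, *Itga4* and *Itgb1*, and in 32.7% of all windows. The TATA box TATAAA, with its reverse complement TTTATA, was in none of the 7 windows and in 12.4% of all windows. These matches only describe the letters of the windows, in which factor binding was not measured.

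Compared per length, the beta chains that can join alpha v changed places between the populations. Levels were divided by the length of the merged exons of each gene in the GENCODE annotation of GRCm38, an approximation, since the reads were aligned to mm39. In GAL1- cells *Itgb1* stood at 127.1 ± 16.0 CPM per kb (SD, n = 3), *Itgb8* at 18.4 ± 0.191, *Itgb5* at 6.87 ± 4.52 and *Itgb3* at 2.58 ± 1.99. In GAL1+ cells *Itgb5* stood at 204.7 ± 32.0 CPM per kb, *Itgb1* at 135.3 ± 8.15, *Itgb3* at 5.91 ± 3.13 and *Itgb8* at 5.20 ± 1.64. *Itgb5* thus passed *Itgb1* in the order of levels, and *Itgb8* went from above *Itgb5* to a level like that of *Itgb3*. Of the summed CPM per kb of these 4 genes, the mean share of *Itgb5* was 4.44% in GAL1- cells (1.42% to 6.77% over the libraries), 35.0% in PDGFRA+ cells (19.0% to 43.5%), 33.8% in PDGFRA- cells (17.0% to 57.4%) and 58.1% in GAL1+ cells (54.7% to 60.7%). The mean of PDGFRA- cells rested on T5, at 57.4%, against 27.2% in T3 and 17.0% in T4. The mean share of *Itgb8* was 12.0% in GAL1- cells, 6.55% in PDGFRA+ cells, 5.02% in PDGFRA- cells and 1.49% in GAL1+ cells. These shares were computed after the levels were seen and carry no test, and a share of RNA is not a share of assembled pairs. The alpha chains of *Itgb2* stood in GAL1+ cells at 148.5 ± 26.5 CPM per kb for *Itgam*, 81.4 ± 39.9 for *Itgax* and 32.6 ± 5.90 for *Itgal*, against 186.4 ± 37.3 for *Itgb2* itself. In GAL1- cells the 4 genes stood at 2.93, 3.47, 1.49 and 6.38 CPM per kb on average. *Itgav* stood at 70.1 ± 6.03 CPM per kb in GAL1- and 36.3 ± 2.04 in GAL1+ cells, and *Itga4* at 1.67 ± 0.639 and 7.44 ± 1.29.

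**Figure D3:**
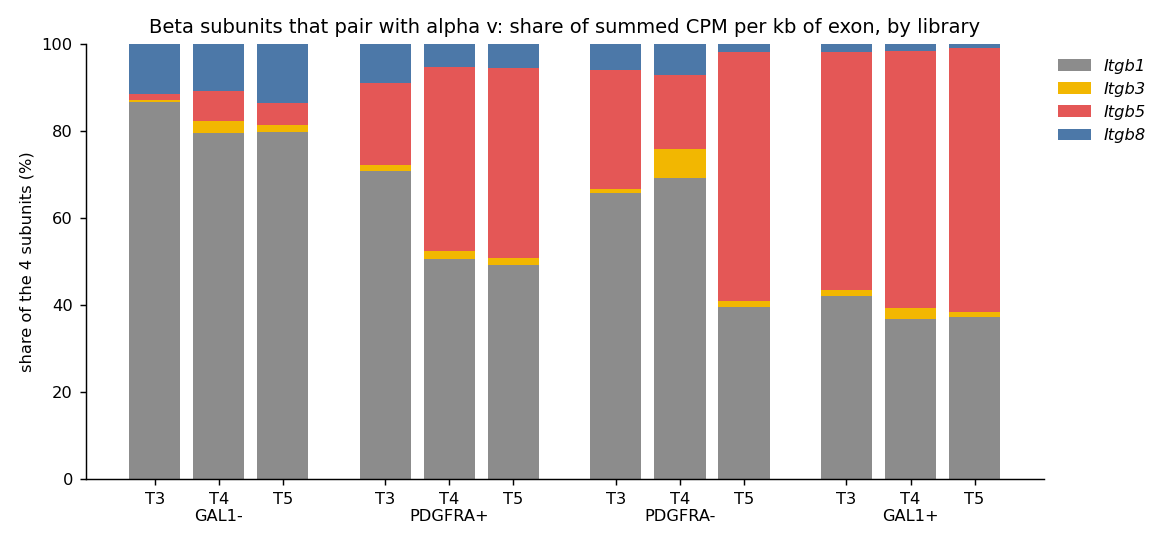
Share (vertical axis, %) of *Itgb1*, *Itgb3*, *Itgb5* and *Itgb8* in their summed CPM per kb of exon in each of the 12 libraries (horizontal axis, tumors T3, T4 and T5 by population). *Itgb5* holds 1.42% to 6.77% in GAL1- libraries and 54.7% to 60.7% in GAL1+ libraries, and 57.4% in the PDGFRA- library of T5.

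Between PDGFRA+ and PDGFRA- cells no integrin gene was called, and nor was any of the 18180 genes (0.00%). The smallest adjusted p was 0.181 over all genes and 0.250, for *Itga4*, over the integrin genes. At an unadjusted p under 0.05 the limma test picked 2 of the 10 integrin genes and 11.8% of all genes. The 2 were *Itga4*, with a log2 fold change of -0.76 for PDGFRA+ over PDGFRA- cells (standard error 0.20, lower in 3 of 3 tumors), and *Itgav*, with 0.59 (standard error 0.20, higher in 3 of 3 tumors). *Itga4* was the only one of the 10 whose libraries did not overlap, against 6.94% of all genes. For *Itgam*, *Itgax*, *Itgal* and *Itgb2* the log2 fold changes were -0.09, -0.02, -0.24 and -0.09. Their 95% intervals were wide, from -1.01 to 0.83 for *Itgam* and from -1.13 to 1.09 for *Itgax*, and differences of about 1 in either direction lay inside them. Without the PDGFRA- library of T5 the 4 values were 0.37, 0.50, 0.27 and 0.37, still not called.

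Both PDGFRA populations lay above GAL1- cells in the leukocyte subunits and *Itgb5*. PDGFRA+ over GAL1- cells gave 6 higher calls and 0 lower calls among the 10 genes, where 8.27% of all genes were called, nearly all of them higher (8.26% higher and 0.0110% lower). The log2 fold changes were 4.11 for *Itgam* (standard error 0.41, adjusted p = 0.00164), 3.72 for *Itgb5* (0.47, adjusted p = 0.00199), 3.43 for *Itgb2* (0.43, adjusted p = 0.00199), 3.11 for *Itgax* (0.49, adjusted p = 0.00422), 3.06 for *Itgal* (0.46, adjusted p = 0.0036) and 1.06 for *Itga4* (0.20, adjusted p = 0.0081). All 6 were without overlap between libraries, as were 24.6% of all genes. *Itgb1*, *Itgav*, *Itgb3* and *Itgb8* had values of 0.02, -0.10, 0.82 and -0.35 and were not called, with *Itgb1* at -0.10 under quantile normalization. Without tumor T3 none of the 10 genes and none of all genes was called, and the difference of *Itgam* was then 4.16. *Itgax* and *Itga4* also lost their calls without tumor T5 and without the tumor as a block, where 4 of the 10 genes were called. The fit to only the 2 groups called 2385 genes higher and 1001 lower.

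PDGFRA- over GAL1- cells gave 7 higher calls and 1 lower call among the 10 genes, where 23.1% of all genes were called, 16.2% higher and 6.88% lower. In 8 genes the libraries did not overlap, as in 28.9% of all genes. *Itgam* was 4.21 higher on the log2 scale, *Itgb5* 3.65, *Itgb2* 3.51, *Itgal* 3.30, *Itgax* 3.13 and *Itga4* 1.82, with adjusted p-values from 0.000689 to 0.00244. *Itgb3* was 1.25 higher (adjusted p = 0.0489) and *Itgav* fell by 0.69 (adjusted p = 0.0361), and both calls were lost without the PDGFRA- library of T5, where the values were 1.51 and -0.39. Over 14 alternative settings the *Itgb3* call held in 5 and the *Itgav* call in 7. The other 6 stayed called without the PDGFRA- library of T5, from 1.66 for *Itga4* to 3.75 for *Itgam*. Of these, *Itgax* lost its call without tumor T3 and without tumor T5, where 5 of the 10 genes were called each time. *Itgb8* had a value of -0.85 that was not called (adjusted p = 0.0894). The GAL1- libraries serve in all 3 comparisons with GAL1- cells, so these results share their controls.

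All leukocyte subunits had higher means in GAL1+ cells than in both PDGFRA populations. Against PDGFRA- cells only *Itgam* and *Itgb2* of these were called. In PDGFRA+ over GAL1+ cells 6 of the 10 genes fell and 2 rose, where 38.0% of all genes were called (20.9% higher and 17.0% lower). *Itgam* fell by 1.67 on the log2 scale (standard error 0.41, adjusted p = 0.0127), *Itgal* by 1.56 (0.46, adjusted p = 0.0268), *Itgb2* by 1.56 (0.43, adjusted p = 0.0195), *Itgax* by 1.49 (0.49, adjusted p = 0.0396), *Itgb5* by 1.45 (0.47, adjusted p = 0.0355) and *Itga4* by 1.16 (0.20, adjusted p = 0.00275). *Itgb8* rose by 1.53 (0.33, adjusted p = 0.00742) and *Itgav* by 0.84 (0.20, adjusted p = 0.011). All 8 had the same direction in 3 of 3 tumors, and in 7 genes the libraries did not overlap, as in 46.0% of all genes. *Itgb1* had a value of -0.08, and 0.20 under quantile normalization, and *Itgb3* of -0.60, neither called. Without tumor T3 only *Itga4* of the 8 calls remained, and without the tumor as a block 3 of the 10 genes were called. In PDGFRA- over GAL1+ cells only *Itgam*, *Itgb5* and *Itgb2* were called, and fell by 1.57, 1.51 and 1.47 (adjusted p = 0.0294, 0.0481 and 0.0401), where 20.1% of all genes were called, 13.2% higher and 6.91% lower. *Itgam* and *Itgb5* were without overlap, as were 18.7% of all genes. This count was the least stable, with 0 calls without T3 or without T4 and 7 without the PDGFRA- library of T5, where *Itgam*, *Itgb5* and *Itgb2* fell by 2.03, 1.90 and 1.92.

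For 7 of the 10 genes the 4 means stood in the order GAL1-, PDGFRA+, PDGFRA-, GAL1+ from low to high, although for *Itgb1* and *Itgb3* all neighbouring populations overlapped. The places of the PDGFRA populations rested on the PDGFRA- library of T5 in *Itgam*, *Itgax*, *Itgal* and *Itgb2*, where PDGFRA+ was above PDGFRA- by 0.37, 0.50, 0.27 and 0.37 without it. *Itgb5* differed from this order only in the places of the PDGFRA populations. PDGFRA+ and PDGFRA- neighboured each other in the order of every gene, and their libraries overlapped in every gene but *Itga4*. *Itgam* and *Itgb5* were the 2 genes in which both outer steps, from GAL1- cells up and to GAL1+ cells up, were free of overlap. *Itgav* and *Itgb8* had the reverse order, and each neighbouring step overlapped.

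Markers of leukocytes moved with these genes. All 11 pan-leukocyte markers rose in GAL1+ over GAL1- cells (median log2 fold change 4.41, from 3.80 to 5.19), against a median of 4.62 for the 5 leukocyte subunits and -0.03 for all genes, of which 28.9% were called higher and 29.3% lower. Their summed level was 78.1, 209.1 and 169.6 CPM in T3, T4 and T5 in GAL1- cells, 594.4, 1387 and 1300 in PDGFRA+ cells, 1065, 644.7 and 2807 in PDGFRA- cells and 2596, 3135 and 3533 in GAL1+ cells, and *Laptm5*, a lysosomal protein gene of leukocytes, had the highest mean CPM over the 12 libraries, although *Lcp1* was above it in all GAL1- and PDGFRA- libraries. The most abundant gene of each further list is likewise that with the highest mean CPM over the 12 libraries. No pan-leukocyte marker was at or under 3 reads in any library. The PDGFRA- library of T5, high in *Itgam*, *Itgax*, *Itgal*, *Itgb2* and *Itgb5*, was high in these markers too. All 8 microglia markers (median 4.45) and all 8 macrophage markers (median 6.20, most abundant *Lyz2*) rose as well in GAL1+ over GAL1- cells. 3 of 5 neutrophil markers rose (most abundant *Csf3r*, 3.84), while *S100a8* (-0.03) and *S100a9* (0.31) were not called. In GAL1- cells *S100a9* had a higher mean log2 CPM than *Csf3r*, 3.26 against 3.09. Of 7 T and NK cell markers none rose and 1 fell (most abundant *Cd3e*, 0.23 and not called). *Pf4*, the 1 platelet marker measured, was at or near the floor of 3 reads in GAL1- cells (-2.34, -3.99 and -2.46 log2 CPM) and between 3.02 and 4.88 in GAL1+ cells. It is also made by macrophages, and *Itga2b*, the alpha chain that joins *Itgb3* on platelets, had a log2 fold change of -0.02 (adjusted p = 0.949). Endothelial markers rose in 8 of 8 (median 2.44, most abundant *Flt1*) and pericyte and fibroblast markers in 7 of 8 (median 2.47, most abundant *Col1a1*). The 6 oligodendrocyte precursor markers all fell (median -2.92, most abundant *Cspg4*), from a summed 2107 to 2573 CPM in GAL1- cells to 252.6 to 785.3 in GAL1+ cells, in the direction of *Itgav* and *Itgb8*. 2 of 6 astrocyte markers fell (most abundant *Slc1a2*, -2.54), as did 2 of 6 neuron markers (most abundant *Gad1*, -2.29), in both lists near the 29.3% of all genes that fell. In PDGFRA+ over GAL1+ cells all 11 pan-leukocyte markers fell (median -1.57), as did the 5 leukocyte subunits (median -1.56), and the 6 oligodendrocyte precursor markers rose (median 2.38), beside 17.0% of all genes lower and 20.9% higher. The part of these cell types in the integrin differences was not tested.

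The genes with profiles most like those of the members were drawn from 14651 genes, predicted genes left out. For *Itgam* they were *Mpeg1*, a macrophage perforin-like gene, at a mean absolute difference of 0.122, *Selenop* at 0.172 and *Csf1r*, the receptor on which microglia and macrophages depend, at 0.189. For *Itgb5* they were *Apoe* at 0.067, *Csf1r* at 0.131 and *Tbxas1*, the thromboxane synthase, at 0.145. *Itgb2* was nearest to *Nckap1l* (0.088), *Hvcn1* (0.105) and *Ctsz* (0.113), and *Itgal* to *Ncf4* (0.103) and *Adcy7* (0.165). *Nckap1l* and *Hvcn1* are genes of haematopoietic cells, and *Ncf4* encodes a subunit of the phagocyte NADPH oxidase. *Itgax* was nearest to *Itgad* (0.123), *Cd74* (0.133) and *Mir5107* (0.182), and *Itga4* to *Btg2* (0.138), *Prkch* (0.142) and *Sik1* (0.168). Whether *Itgad* and *Itgax* share reads was not tested. *Itgav* was nearest to *Cmtm4* (0.088), *Bpnt2* (0.091) and *Cbx5* (0.104), and *Itgb8* to *Gfra2* (0.109), *Adgrl3* (0.111) and *Gdf11* (0.118). *Itgb1* was nearest to *Septin2* (0.057), *Edem3* (0.065) and *Slc30a5* (0.066), where a small difference comes easily because the profile is nearly flat. *Itgb3* had no close neighbour, with *Lef1* at 0.225, *Col15a1* at 0.245 and *Lamb2* at 0.250. The 12 libraries behind each distance come from 3 tumors and 4 populations and are not independent.

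Of the 15 other integrin genes measured, 5 rose and 2 fell in GAL1+ over GAL1- cells (median log2 fold change 0.34), a share called below the 58.2% of all genes (28.9% higher and 29.3% lower). *Itgad*, the remaining partner of *Itgb2*, rose by 4.41 (standard error 0.47, adjusted p = 7.42e-05), with the same uncertainty over shared reads. *Itga5*, the fibronectin receptor chain, rose by 3.40 and *Itga6*, a laminin receptor chain, by 2.92, and both pair with *Itgb1*, which did not pass the test. *Itgb7*, which pairs with *Itga4*, rose by 1.34 and *Itga9* by 0.37. *Itga7*, another laminin receptor chain, fell by 1.55 and *Itga8*, a partner of *Itgb1*, by 1.29. *Itgb4* had a value of 0.31 (adjusted p = 0.731). *Itga11*, *Itgb6* and *Itgb2l* were not analysed here.

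Of 8 ligands of the leukocyte integrins, 5 rose and 2 fell in GAL1+ over GAL1- cells (median 1.48), where 28.9% of all genes were higher and 29.3% lower, with a median of -0.03. *F11r* (JAM-A), which binds LFA-1, rose by 4.54, *Vcam1*, the ligand of the *Itga4* integrins, by 3.89 and *Icam1*, the ligand of LFA-1 and of the *Itgam* integrin, by 2.18. *Jam3* fell by 1.94 and *Jam2* by 1.84. Of 14 matrix ligands of the alpha v and *Itgb1* integrins, 8 rose and 3 fell (median 1.49), beside the same shares of all genes. *Spp1* (osteopontin) rose by 4.70, *Fn1* (fibronectin) by 4.48 and *Vtn* (vitronectin), which is also on the pericyte list, by 2.91, while *Edil3*, an alpha v ligand, fell by 1.82 and *Tnc* (tenascin C) had a value of -0.99 that was not called (adjusted p = 0.153). Of 8 TGF-beta ligands and carriers, 4 rose and 2 fell (median 1.09), again beside 28.9% higher and 29.3% lower among all genes. *Nrros*, which holds latent TGF-beta on microglia and macrophages, rose by 4.31, *Tgfb1* by 4.17, *Tgfb3* by 2.93 and *Lrrc32*, another such holder, by 2.31, whereas *Ltbp4* fell by 1.42 and *Tgfb2* by 0.76. *Nrros* and *Tgfb1* thus moved opposite to *Itgav* and *Itgb8*, which encode a receptor of the latent complex.

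The 29 measured genes of integrin activation and the adhesion complex gave 16 higher and 6 lower calls in GAL1+ over GAL1- cells (median 0.72), where 58.2% of all genes were called, with 28.9% higher and 29.3% lower. *Fyb* rose by 4.78 and *Parvg* by 4.71, both genes of haematopoietic cells, and *Lims2* fell by 2.23 and *Tgfb1i1* by 1.64. Kindlins and talins bind the tails of beta chains and switch integrins on. *Fermt3*, the kindlin of blood cells, rose by 4.52 (standard error 0.40, adjusted p = 4.31e-05) and *Fermt2*, the kindlin of most other tissues, fell by 1.56 (0.28, adjusted p = 0.00119). *Tln1*, the talin of leukocytes and many other cells, rose by 1.70 (0.17, adjusted p = 5.37e-05). In log2 CPM, *Fermt3* averaged 3.15 in GAL1- and 7.67 in GAL1+ cells and *Fermt2* 7.73 and 6.17. 2 further pairs of related genes, chosen after their values were seen, split likewise. *Tln2* fell by 1.52 and *Ptk2*, the focal adhesion kinase, fell by 1.38, while *Ptk2b*, its relative of haematopoietic cells and neurons, rose by 3.73. Other related genes of the list did not split. *Rap1a* and *Rap1b* rose by 1.02 and 2.28, and *Parvb* rose by 0.93 beside *Parvg*.

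**Figure D4:**
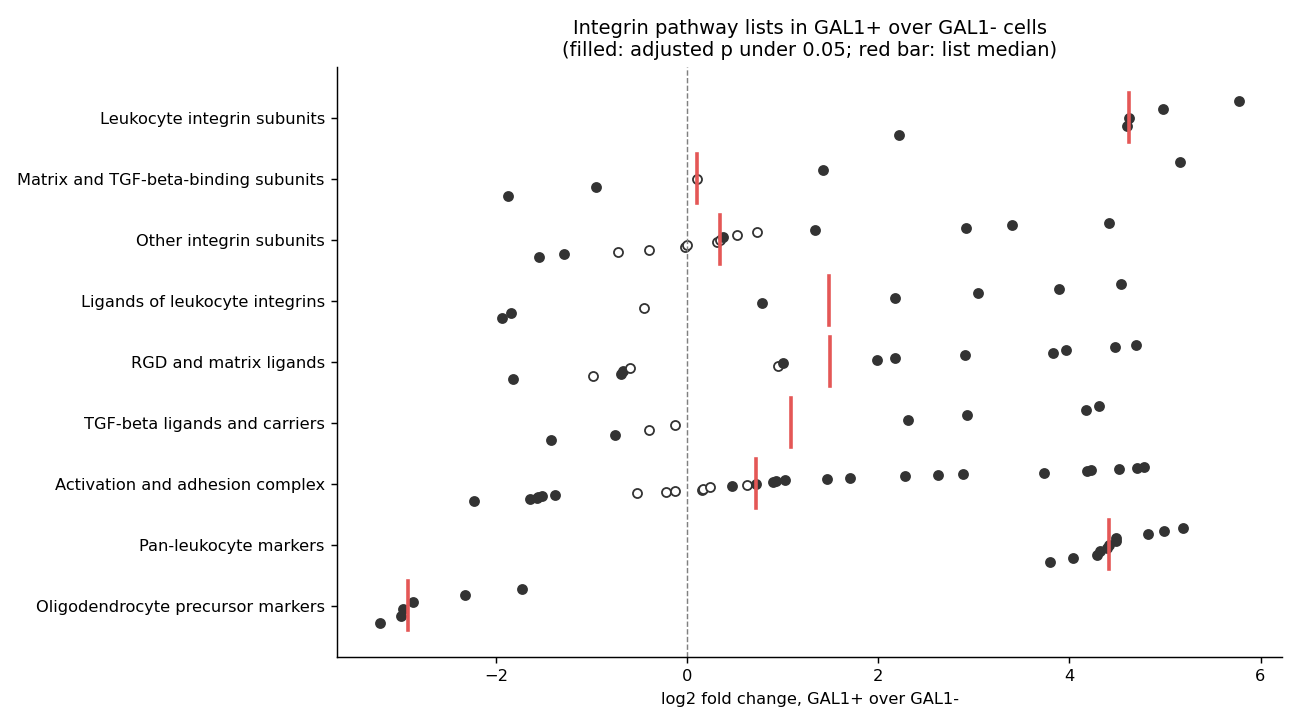
Log2 fold change of GAL1+ over GAL1- cells (horizontal axis) for each measured gene of 7 integrin lists and 2 marker lists (rows), with filled points for adjusted p-values under 0.05 and a red bar at the median of each list. The leukocyte subunits and pan-leukocyte markers have medians of 4.62 and 4.41, the matrix subunits spread from -1.88 to 5.16, and the oligodendrocyte precursor markers have a median of -2.92.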

How the data were processed

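Bulk RNAseq libraries of 4 sorted populations from each of 3 mouse GBMs were used, 3 libraries per group. According to the study's methods, the authors trimmed reads with fastp, aligned them with STAR to mm39, counted exonic reads with featureCounts with multi-mapping reads as fractions, filtered genes (CPM above 1, 3 samples or more), and applied TMM and voom. Whether counting used strand is not given in the sources used here. The deposited unit is log2 CPM, to which the authors had added an offset of 0.5 reads (18180 genes, 12 libraries). Reads were recovered by taking each library's minimum as 0 reads. 41.3% to 59.2% of the recovered values of a library were whole within 0.01 reads. 3 reads were taken as the floor, at a log2 CPM of -2.99 to -1.44, for counting error alone.

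All genes and all 12 libraries entered 1 limma fit (limma 3.58.1, R 4.3.3) with terms for population and tumor (the block), followed by a moderated test with a mean-variance trend (degrees of freedom 6 residual, 3.49 prior) for the 6 pairs of populations. Genes were called at a Benjamini-Hochberg adjusted p under 0.05. Equal tumor numbers mark the same tumor, and the deviations of such libraries from their population means correlated at 0.14 to 0.662 (18 pairs, mean 0.486, across genes). The fit was tested on simulated data. No 2 libraries were alike, with a median absolute log2 difference of at least 0.205.

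Members and lists were chosen with earlier results of these data known. Text names the 10 members, the 2 highest and 2 lowest GAL1+ over GAL1- changes of each list, a fixed set of related subunits, ligands and activators, the 3 genes most like each member, and the most abundant gene of each marker list. A few named items, 1 allele of the model among them, are not reported here. Lists are described by counts and medians, with no test of the list. Sequences came from RefSeq (GRCm38.p6).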

Additional observations from a re-analysis of the deposited data

How the results depend on the processing

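Alternatives were a fit without the tumor as a block, a fit to only the 2 groups in question, an untrended or a robust eBayes step, voom weights on recovered reads, an offset of 1 read, filters at a log2 CPM above 1 or 3, quantile normalization, median centring, leaving out each tumor, and leaving out the PDGFRA- library of T5. In GAL1+ over GAL1- cells the 10578 calls stayed at 8071 to 10938 and the 9 integrin calls at 8 or 9 under all 14, and PDGFRA+ over PDGFRA- cells stayed at 0. In PDGFRA+ over GAL1+ cells, 6900 genes and 8 integrin genes were called, 3154 and 3 with no block (not paired by tumor), and 2110 to 7677 and 1 to 8 with a tumor or the PDGFRA- library of T5 left out. In PDGFRA- over GAL1+ cells, 3652 and 3 were called, 725 and 0 with no block, and 0 to 5837 and 0 to 7 with such a left-out tumor or library. Without the PDGFRA- library of T5 the counts were 5837 and 7, the fit to 2 groups called 1893 genes, and the integrin count was 1 without a trend, 1 under quantile normalization and 5 under median centring. In PDGFRA+ over GAL1- cells, 1504 and 6 were called, 612 and 4 with no block, and 3386 genes in the fit to 2 groups (2385 higher and 1001 lower). With 1 left out, 0 to 1886 genes and 0 to 6 integrin genes were called. In PDGFRA- over GAL1- cells, 4200 and 8 were called, 1444 genes with no block, 1328 in the fit to 2 groups, 2009 without the PDGFRA- library of T5, and 920 to 3287 genes and 5 to 7 integrin genes with 1 left out. A fit with a tumor left out has fewer libraries; the cause of the other shifts was not tested.

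Some differences near 0 changed sign. For *Itgb1* under quantile normalization, the log2 fold change was -0.30 in GAL1+ over GAL1-, 0.04 in PDGFRA+ over PDGFRA-, 0.20 in PDGFRA+ over GAL1+, 0.16 in PDGFRA- over GAL1+, -0.10 in PDGFRA+ over GAL1- and -0.14 in PDGFRA- over GAL1- cells. Under median centring it was -0.10 in PDGFRA+ over GAL1- and 0.00 in PDGFRA- over GAL1- cells. With a tumor or the PDGFRA- library of T5 left out it ranged from -0.21 to 0.10 in PDGFRA+ over PDGFRA-, -0.12 to 0.18 in PDGFRA- over GAL1+, -0.01 to 0.07 in PDGFRA+ over GAL1- and -0.04 to 0.23 in PDGFRA- over GAL1- cells. In PDGFRA+ over PDGFRA- cells, *Itgam*, *Itgax* and *Itgb2* were 0.01, 0.05 and 0.00 under quantile normalization. With a tumor or that library left out, *Itgam*, *Itgax*, *Itgal* and *Itgb2* ranged from -0.77 to 0.37, -0.80 to 0.50, -0.89 to 0.27 and -0.74 to 0.37, *Itgb3* from -0.81 to 0.27 and *Itgb5* from -0.57 to 0.45. *Itgb3* in PDGFRA- over GAL1+ cells ranged from -0.62 to 0.21. None of these values was called. The *Itgb3* call in GAL1+ over GAL1- cells was lost with no block and without T3, and the other 8 calls of that comparison held under all 14 alternatives.

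Scaling moved the median of all genes by over 0.1 in 5 cases. Under quantile normalization it went from -0.02 to -0.15 in PDGFRA+ over GAL1- and from 0.02 to -0.12 in PDGFRA- over GAL1- cells. Under median centring it went from 0.01 to -0.15 in PDGFRA+ over GAL1+, from 0.03 to -0.11 in PDGFRA- over GAL1+ and from -0.02 to -0.13 in PDGFRA+ over GAL1- cells. Under these scalings the split of calls into higher and lower moved by over 10 percentage points in 3 comparisons. Under median centring it went from 3803 and 3097 to 3038 and 4408 in PDGFRA+ over GAL1+ cells. In PDGFRA- over GAL1+ cells it went from 2395 and 1257 to 1920 and 2178, and in PDGFRA- over GAL1- cells from 2949 and 1251 to 2451 and 2314. In this last comparison it was 2251 and 2514 under quantile normalization.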

Other observations

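Tumor T4 stood apart in a few integrin genes outside the 10 described, chosen here after their values were seen. *Itgb4*, the beta chain of hemidesmosomes, had a log2 CPM of 0.76, 5.42 and 3.68 in T3, T4 and T5 in GAL1- cells, 2.03, 4.00 and 3.48 in PDGFRA+ cells, 1.37, 7.47 and 2.83 in PDGFRA- cells and 1.91, 6.27 and 2.62 in GAL1+ cells. T4 was the highest tumor in all 4 populations, as for *Itgb3*. *Itgbl1*, a secreted relative of the beta chains, had a log2 CPM of -0.94, 5.03 and 2.52 in GAL1- cells, 0.65, 3.21 and 2.34 in PDGFRA+ cells, -0.32, 6.84 and 2.77 in PDGFRA- cells and 0.98, 4.89 and 2.94 in GAL1+ cells, in the same order. In the PDGFRA- library of T4 the matrix genes *Thbs2* (10.49, against 4.55 in T3 and 5.70 in T5) and *Postn* (8.48, against 4.38 and 5.89) were high too.

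*Itgae* (CD103), the alpha chain that joins *Itgb7* on lymphocytes and dendritic cells of epithelia, had its highest mean in PDGFRA- cells. This gene, too, was chosen after its values were seen. Its log2 CPM was 2.42, 3.93 and 3.78 in T3, T4 and T5 in GAL1- cells, 3.33, 3.41 and 3.18 in PDGFRA+ cells, 4.97, 4.45 and 5.25 in PDGFRA- cells and 2.77, 2.75 and 2.47 in GAL1+ cells. PDGFRA+ over PDGFRA- cells had a value of -1.59, without overlap but not called (adjusted p = 0.214). The difference of PDGFRA- over GAL1+ cells was 2.23 (standard error 0.35, adjusted p = 0.00722 by limma, higher in 3 of 3 tumors). In the same comparison *Itgb7* had a value of 0.47 and was not called (adjusted p = 0.13), while in PDGFRA- over GAL1- cells *Itgae* rose by 1.51 (adjusted p = 0.0158) and *Itgb7* by 1.81 (adjusted p = 0.000792). T and NK cell markers were low in all populations. Their summed CPM was 8.655 to 17.36 in GAL1+ and 20.72 to 28.48 in PDGFRA- libraries, against 7.582 to 23.5 in GAL1- libraries. In the direction of *Itgae*, 3 of 7 rose in PDGFRA- over GAL1+ cells (median 1.31, all 7 above 0). These were *Cd2* (1.54, adjusted p = 0.0444), *Cd3g* (1.53, adjusted p = 0.0187) and *Lck* (1.38, adjusted p = 0.0119), where 13.2% of all genes were called higher. Without tumor T4 none of all genes was called in PDGFRA- over GAL1+ cells, these 4 included. *Cd3e*, the most abundant marker of the list, had a value of 0.73 and was not called. In PDGFRA- over GAL1- cells none of the 7 was called by limma (median 0.76), and 2, *Cd2* and *Cd3e*, had an unadjusted p under 0.05, where 23.1% of all genes were called and 38.7% had an unadjusted p under 0.05. The part of T and NK cells in the *Itgae* difference was not tested.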
